A study of Homo sapiens with 3 samples.

Results

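RNA polymerase II (Pol II) and the protein kinase subunit CK2α were located at 9 genes of the rapid response to stimuli: the immediate-early genes FOS, JUN, JUNB, JUND, EGR1, IER2, ATF3 and DUSP1, with MYC. The members are all ChIP-seq regions whose centre lies in a fixed hg19 window around each gene, from 10 to 16 kb wide and 66 kb for ATF3. There were 36 such regions among 59983 in all: 3 of 13382 for CK2α, 13 of 21819 for Pol II with vehicle and 20 of 24782 for Pol II with inhibitor. The windows were drawn by gene, not by any measured value, but the genes were chosen with earlier results of these data known.

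The cells were LNCaP, an androgen-responsive line from a human prostate carcinoma, grown for 3 days in medium with charcoal-stripped serum. All of them received 100 nM dihydrotestosterone (DHT), the hormone that activates the androgen receptor. ChIP-seq recovers and sequences the DNA that an antibody pulls down with its protein, and each group held 1 library. The CK2α library came from cells given DHT alone, for 2.5 hours by the treatment label and for 90 min by the protocol. The vehicle library of Pol II came from cells labelled 25 μM DMSO for 2.5 hours, with DHT for the last 1.5 hours. The inhibitor library came from cells given 25 μM TBBz, a small molecule that inhibits CK2, on the same schedule. These groups are called CK2α, DMSO and TBBz below. The source label of both Pol II libraries mentions TBBz, so they were told apart by their treatment labels. LNCaP is a single cancer line, no cell line marker was checked in these region lists, and CK2 was inhibited by only 1 compound.

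Immediate-early genes are switched on within minutes of a growth factor, stress or hormone signal, without any need for new protein. Many of them hold Pol II that has started transcription and paused close to the start of the gene, ready for release into elongation. JUN, JUNB, JUND and FOS encode subunits of the transcription factor AP-1, ATF3 a related factor of the stress response, EGR1 a zinc-finger factor, IER2 a nuclear regulator and DUSP1 a phosphatase that switches off MAP kinases. MYC encodes a growth-promoting transcription factor and is often grouped with them as an early target of growth signals. CK2 is a broadly acting serine/threonine kinase, of which CK2α is a catalytic subunit.

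Each library was given as a list of regions, nearly all 201 bp wide, with no signal value per region. The place of a region in its list is given here as a percentage of the list, with small values at the front. The place is taken as an order only, and places in different lists are set side by side without reading a change from them. The libraries held 15466579 tags for DMSO, 22345614 for TBBz and 19021404 for CK2α, and an average region held 48.1, 114 and 23.5 of them. With 1 library per group the spread between replicates is unknown, so differences between conditions are given as values without a test. Intervals are exact (Clopper-Pearson) 95% binomial intervals and cover counting error only. Distances are between region centres, and 2 regions overlap when they share at least 1 bp. No hg19 gene annotation was used, so positions relative to the start of a gene, its exons or introns are not given. Upstream and downstream refer to the direction of transcription, taken from the strand of each gene in RefSeq.

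The promoters of 6 of these genes are shown first. JUND, EGR1 and DUSP1 had a CK2α region, while JUN, JUNB and IER2 had Pol II at the front of the DMSO list without one. ATF3 also had Pol II at the front of the DMSO list without a CK2α region in its window, but its promoters are not printed. Each sequence is the 250 bases before the annotated start, read 5′ to 3′ on the gene's strand, from RefSeq on GRCh38.p14, which is not the build of the regions. The regions were not placed on that build, so no sequence is shown to lie at a region of its gene. Capitals mark every match, on either strand, to the cyclic AMP response element TGACGTCA (CRE), its shorter form TGACG, the serum response element core known as the CArG box, the TATA box TATAAA, the E-box CACGTG and the GC box GGGCGG. The AP-1 site TGACTCA was searched too. Matches to the shorter form include those within a full CRE, and matches can overlap.
JUND, chr19:18281623-18281872, minus strand: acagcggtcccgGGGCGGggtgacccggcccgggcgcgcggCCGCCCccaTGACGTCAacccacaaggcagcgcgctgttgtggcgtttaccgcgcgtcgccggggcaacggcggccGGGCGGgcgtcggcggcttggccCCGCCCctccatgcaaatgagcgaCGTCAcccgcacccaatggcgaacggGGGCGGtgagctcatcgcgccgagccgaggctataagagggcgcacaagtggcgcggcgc
EGR1, chr5:138465229-138465478, plus strand: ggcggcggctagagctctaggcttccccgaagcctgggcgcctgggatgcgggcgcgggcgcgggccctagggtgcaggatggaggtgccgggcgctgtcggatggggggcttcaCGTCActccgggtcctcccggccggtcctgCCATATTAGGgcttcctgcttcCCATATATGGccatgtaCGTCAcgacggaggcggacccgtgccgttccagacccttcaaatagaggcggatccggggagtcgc
DUSP1, chr5:172771196-172771445, minus strand: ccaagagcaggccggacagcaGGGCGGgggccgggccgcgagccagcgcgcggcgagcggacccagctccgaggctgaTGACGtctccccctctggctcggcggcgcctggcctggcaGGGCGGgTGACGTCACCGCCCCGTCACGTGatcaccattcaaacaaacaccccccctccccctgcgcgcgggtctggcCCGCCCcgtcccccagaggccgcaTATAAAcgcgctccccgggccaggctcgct
JUN, chr1:58784048-58784297, minus strand: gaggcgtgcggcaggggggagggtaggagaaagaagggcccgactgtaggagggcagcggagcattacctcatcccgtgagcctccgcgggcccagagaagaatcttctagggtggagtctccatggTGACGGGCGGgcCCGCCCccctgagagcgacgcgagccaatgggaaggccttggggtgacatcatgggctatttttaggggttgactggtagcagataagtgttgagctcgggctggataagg
JUNB, chr19:12791236-12791485, plus strand: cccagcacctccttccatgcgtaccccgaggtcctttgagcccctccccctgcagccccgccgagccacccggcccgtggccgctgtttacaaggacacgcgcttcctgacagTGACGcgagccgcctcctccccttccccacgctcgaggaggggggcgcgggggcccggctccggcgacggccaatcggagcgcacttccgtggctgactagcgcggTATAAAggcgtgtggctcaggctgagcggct
IER2, chr19:13150161-13150410, plus strand: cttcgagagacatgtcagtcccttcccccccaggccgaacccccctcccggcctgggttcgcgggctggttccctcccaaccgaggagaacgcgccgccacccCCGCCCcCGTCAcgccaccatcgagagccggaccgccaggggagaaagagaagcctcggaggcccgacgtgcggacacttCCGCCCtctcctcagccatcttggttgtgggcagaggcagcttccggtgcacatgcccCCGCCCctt

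RefSeq promoters were matched for 8 of the 9 genes, with 2 starts for ATF3. The shorter CRE form stood in 7 of these 8 genes, against 21.2% of all 35116 promoters of the same length. The full CRE stood in JUND and DUSP1, 2 of 8 genes, against 1.65% of all promoters. In DUSP1 it began 125 bases before the start, and in JUND it began 200 bases before it. Within the 250 bases searched, EGR1 was the only 1 of the 8 genes with a CArG box, the element bound by serum response factor. It had 2 of them, beginning 105 and 83 bases before the start, and 1.16% of all promoters held a CArG box. Bases farther upstream were not searched, so no gene is shown to lack the element. The TATA box stood in 4 of 8 genes (ATF3, DUSP1, FOS and JUNB), against 10.7% of all promoters, and began 30, 33 and 31 bases before the start in DUSP1, FOS and JUNB, but 230 bases before 1 of the 2 starts in ATF3. The GC box stood in 6 of 8 genes against 42.6%, the E-box in DUSP1 alone against 6.34%, and the AP-1 site in 0 of 8 against 4.20%. These are matches of letters in a window, not measured sites of binding. Only the forms named above were searched, so variant forms of an element, of the AP-1 site too, were not counted. Members are counted by gene and the background by promoter, and the background was not matched to the members for base composition. The Pol II regions of ATF3 were not placed relative to its 2 starts. Its matches are thus not shown to lie at a start that holds Pol II.

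The promoters of the genes with a CK2α region in their window were rich in CpG. JUND had 40 CpG dinucleotides in 250 bases, DUSP1 had 30 and EGR1 had 25, against a median of 11 and an upper quartile of 23 over all promoters. Among the genes without a CK2α region, JUNB had 27, FOS 25, IER2 22 and JUN 14, and the 2 ATF3 starts had 4 and 0. The ranges of both groups overlapped between 25 and 27 CpG. Neither CK2α nor Pol II regions were placed on the build of these promoters. No count is thus shown to come from bases under a region.

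**Figure D1:**
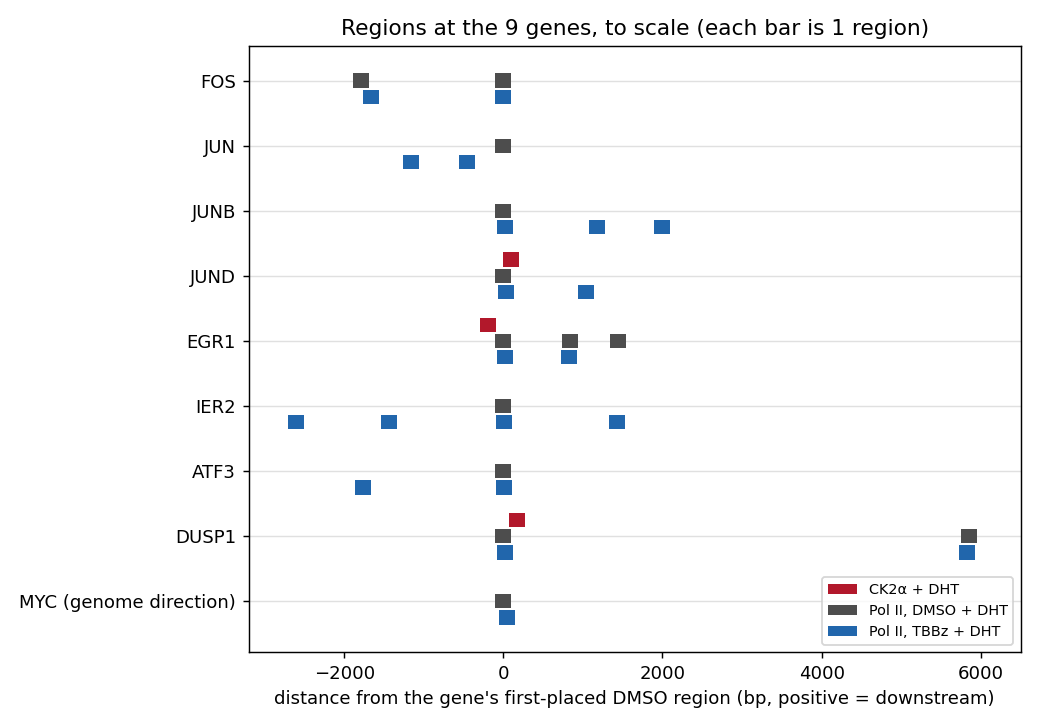
Each bar is 1 region at its true width, placed by its distance in bp from the first-placed DMSO region of the same gene, with downstream to the right (MYC in genome direction); red is CK2α, grey Pol II with DMSO and blue Pol II with TBBz. JUN, JUNB, JUND, IER2 and ATF3 have more blue than grey bars, EGR1 has fewer, and CK2α is present at JUND, EGR1 and DUSP1.

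Pol II was found at all 9 genes in both libraries. By comparison, 8.21% of all 14 kb windows of the genome held a DMSO region and 8.96% held a TBBz region. Of the 14 kb windows with a DMSO region, 86.8% also held a TBBz region. The number of regions was higher with TBBz at 5 genes (JUN, JUNB, JUND, IER2 and ATF3), equal at 3 (FOS, DUSP1 and MYC) and lower at 1 (EGR1). Among all 14 kb genome windows with a DMSO region, 10.1% had more TBBz than DMSO regions. The genome windows are not centred on genes, and the width of 14 kb is the median of the 9 gene windows. More tags were sequenced for TBBz, and 12.6% of them lay in regions, against 6.79% for DMSO. Peak calling required 4-fold signal over the surrounding 10 kb, which removed 25346 of 47165 candidates with DMSO and 13517 of 38299 with TBBz. The part of these differences in the region numbers was not tested.

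CK2α was found at 3 of the 9 genes: JUND, EGR1 and DUSP1. Of all 14 kb genome windows, 5.21% held a CK2α region, and of those with a DMSO Pol II region 50.7% did. The interval of 3 of 9 genes, 7.49 to 70.1%, holds 50.7%. All 9 genes held Pol II, so the share over all genome windows is not a like background.

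JUND, an AP-1 subunit that many cells express without a stimulus, had the earliest region of the 9 genes in all 3 lists. Its DMSO region chr19:18392259-18392459 was at place 6 and its first TBBz region chr19:18392224-18392424 at place 4. Both were numbered first among the peak candidates of chromosome 19. The CK2α region chr19:18392169-18392369 was at place 63 of its list (0.471%). The CK2α centre lay 90 bp from the DMSO centre and 55 bp from the TBBz centre, on the downstream side of both, and shared 111 bp and 146 bp with them. The TBBz list held a second region at chr19:18391224-18391424, 1035 bp downstream of the DMSO region, at place 488 (1.97%). The RefSeq span of JUND is 1929 bp long on GRCh38.p14.

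JUN, the founding AP-1 subunit, was the gene whose leading Pol II regions in the DMSO and TBBz lists did not overlap. The DMSO region chr1:59249567-59249767 stood at place 69 (0.316%), and no TBBz region overlapped it. With TBBz, Pol II regions stood at chr1:59250019-59250219 (place 246, 0.993%) and chr1:59250731-59250931 (place 3917, 15.8%), 452 and 1164 bp upstream of the DMSO region. Among the 5707 DMSO regions with no TBBz overlap, the JUN region was the second in order. Peaks of the same list were called at least 500 bp apart. A TBBz peak centred 452 bp away thus left no place for another at the DMSO centre. With centres within 500 bp as overlap, the JUN pair counts as shared. Whether the site itself differed was not tested. In the first 1% of the DMSO list a TBBz overlap was found for 95.9% of regions and for 5 of the 6 regions that belong to the 9 genes, with JUN as the exception. The nearest CK2α centre lay 32.6 kb away. In RefSeq the long noncoding gene JUN-DT lies beside JUN, with a gap of 1104 bp, on the upstream side and on the opposite strand.

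JUNB, an AP-1 subunit that can oppose JUN, had 1 region with DMSO and 3 with TBBz. The DMSO region chr19:12902230-12902430 stood at place 75 (0.344%), and the TBBz region chr19:12902252-12902452 lay 22 bp from it, at place 680 (2.74%). The other two TBBz regions, at chr19:12903411-12903611 (place 6412, 25.9%) and chr19:12904220-12904420 (place 7934, 32.0%), lay 1181 and 1990 bp downstream. The TBBz centres spanned 1968 bp, and the RefSeq span of JUNB is 1830 bp long. A further TBBz region lay 600 bp outside the window, at chr19:12897300-12897500. No CK2α region lay in the window, and the nearest centre was 25.2 kb from the DMSO region. In RefSeq the gene HOOK2 overlaps JUNB, so a region there can belong to either.

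FOS, the partner that forms the classical AP-1 dimer with JUN, differed from the JUN family in its place. Its DMSO regions stood at chr14:75745462-75745662 (place 9422, 43.2%) and chr14:75743670-75743870 (place 16491, 75.6%). With TBBz the regions were chr14:75745452-75745652 (place 14149, 57.1%) and chr14:75743804-75744004 (place 16507, 66.6%). The main pair differed by 10 bp, and the upstream pair by 134 bp with 67 bp shared. The other 8 genes each had an earlier first region in both lists, the latest of them EGR1, at 21.7% with DMSO and 9.12% with TBBz. No CK2α region lay in its window, and the nearest centre was 14.6 kb away.

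**Figure D2:**
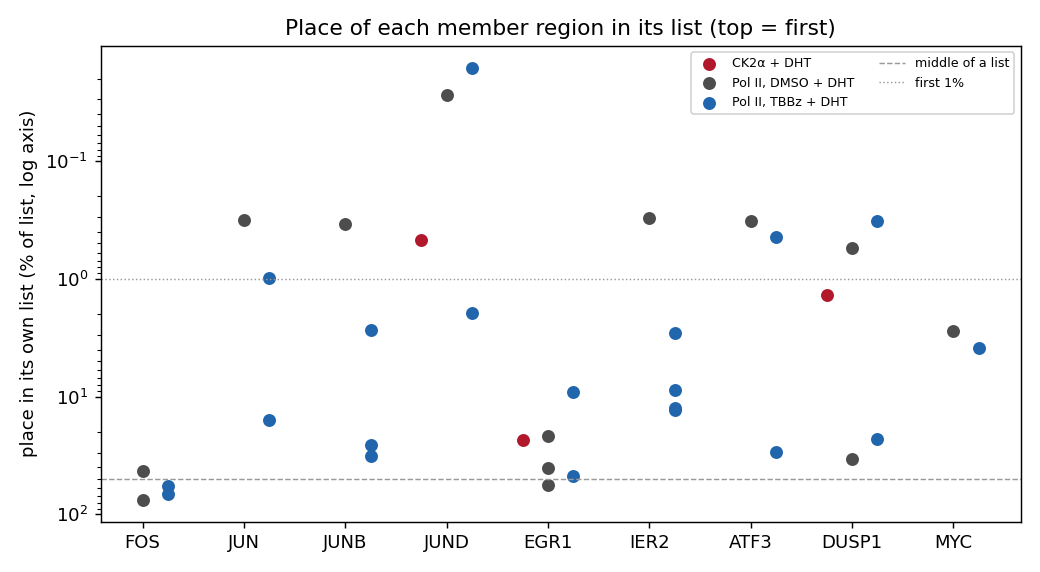
Each point is 1 region of the 9 genes, with its place as a percentage of its own list on a log axis (top is the front of the list); red is CK2α, grey DMSO and blue TBBz. JUND leads every list, JUN, JUNB, IER2 and ATF3 stand together near 0.3% of the DMSO list, and FOS stands near or behind the middle.

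ATF3, which is induced by stress and binds DNA as a relative of AP-1, had 1 DMSO region, chr1:212782037-212782237, at place 70 (0.321%). The TBBz list had a region 10 bp from it, chr1:212782047-212782247, at place 110 (0.444%). A second TBBz region, chr1:212780273-212780473, lay 1764 bp upstream of the DMSO region at place 7336 (29.6%). The window of 66 kb covers a gene of 55371 bp in RefSeq, and Pol II was found there in a stretch of 1774 bp between TBBz centres. Another pair of Pol II regions lay just outside the window, 705 bp beyond its edge with DMSO and 737 bp with TBBz, beside a CK2α region 934 bp beyond it. From the DMSO region within the window the nearest CK2α centre was 50.1 kb away.

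IER2, a small gene that is switched on by growth factors, had the largest number of TBBz regions of the 9 genes. DMSO gave 1 region, chr19:13263800-13264000, at place 67 (0.307%). With TBBz a region at chr19:13263809-13264009 lay 9 bp from it, at place 712 (2.87%). The other three stood at chr19:13261188-13261388 (place 3132, 12.6%), chr19:13262360-13262560 (place 2169, 8.75%) and chr19:13265230-13265430 (place 3257, 13.1%). They lay 2612 and 1440 bp upstream and 1430 bp downstream of the DMSO region. The TBBz centres spanned 4042 bp, and the RefSeq span of IER2 is 4501 bp long. STX10, which encodes a membrane fusion protein, lies 36 bp from IER2 in RefSeq, on its upstream side and on the opposite strand, so Pol II of both genes cannot be told apart here. The nearest CK2α centre to the DMSO region was 9.48 kb away.

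EGR1, a zinc-finger transcription factor, was the only gene of the 9 with fewer regions under TBBz. DMSO gave 3 regions: chr5:137799658-137799858 (place 4734, 21.7%), chr5:137800499-137800699 (place 8874, 40.7%) and chr5:137801097-137801297 (place 12303, 56.4%). TBBz gave 2, at chr5:137799684-137799884 (place 2261, 9.12%) and chr5:137800487-137800687 (place 11827, 47.7%). These lay 26 and 12 bp from the first and second DMSO regions. The third DMSO region, the most downstream of the 3, had its nearest TBBz centre 610 bp away and no overlap. CK2α stood upstream of all of them at chr5:137799468-137799668 (place 3106, 23.2%), 190 bp from the first DMSO centre with 11 bp shared. It lay 216 bp from the nearest TBBz centre and did not overlap it. Where the start of EGR1 lies among these regions was not determined.

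DUSP1, the phosphatase that ends MAP kinase signalling, had the same pair of Pol II sites in both libraries. The DMSO regions were chr5:172198068-172198268 (place 119, 0.545%) and chr5:172192217-172192417 (place 7384, 33.8%). With TBBz they were chr5:172198047-172198247 (place 80, 0.323%) and chr5:172192235-172192435 (place 5708, 23.0%), 21 and 18 bp from their partners. The later-placed region lay 5851 bp downstream of the leading one with DMSO, while the RefSeq span of DUSP1 is 3100 bp long. CK2α stood at chr5:172197892-172198092, at place 184 (1.37%), 176 bp downstream of the leading DMSO centre. It shared 25 bp with the DMSO region and 46 bp with the TBBz region.

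MYC had 1 Pol II region in each list. With DMSO it was chr8:128748425-128748625, at place 605 (2.77%), and with TBBz chr8:128748466-128748666, at place 962 (3.88%). Their centres lay 41 bp apart and they shared 160 bp. Among the 9 genes MYC had the most distant CK2α, 228 kb from the DMSO region.

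The regions at these genes stood early in their lists. The median place was 2.77% for the 13 DMSO regions, 10.9% for the 20 TBBz regions and 1.37% for the 3 CK2α regions, against 50% for all regions of each list by construction. These medians depend on the windows and lists: with windows widened by 5 kb they were 8.36% for DMSO and 18.3% for CK2α, and in the first 50% of each list 1.09% for DMSO, 17.9% for TBBz and 2.75% for CK2α. The CK2α median rests on 3 regions, at 0.471, 1.37 and 23.2%. In the DMSO list 6 of the 9 genes had a region in the first 1%, which holds 218 regions. Of these, IER2, JUN, ATF3 and JUNB stood at places 67, 69, 70 and 75. In the TBBz list 4 genes had a region in the first 1% (JUND, DUSP1, ATF3 and JUN).

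Most DMSO regions of the 9 genes had a TBBz region at the same site. A TBBz overlap was found for 11 of the 13, 84.6% (54.6 to 98.1%); over the whole list it was 73.8%. The exceptions were the leading region of JUN and the third region of EGR1. With centres within 500 bp as overlap, JUN was no exception and the share was 12 of 13 (92.3%). In the other direction 11 of 20 TBBz regions overlapped a DMSO region, 55.0% (31.5 to 76.9%), against 65.0% of all TBBz regions. Both backgrounds lie within the intervals. The median distance from a DMSO centre to the nearest TBBz centre was 22 bp, against 33 bp over all DMSO regions.

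The TBBz regions without a DMSO partner stood early in their list. There were 9 of them: 3 at IER2, 2 each at JUN and JUNB, and 1 each at JUND and ATF3. Their nearest DMSO centres lay 452 to 2612 bp away, which the choice of narrow windows that all hold a DMSO region largely fixes. Their median place was 13.1%, against 74.9% for all 8670 TBBz regions without DMSO overlap. It was 48.3% for those with a DMSO centre within 3 kb, and 25.8% for the 80 within 3 kb of a DMSO region in the first 1%, the 9 included. Other TBBz regions beside leading DMSO regions thus stood early too. They stood between places 246 and 7934, so each of them is kept when the TBBz list is shortened to the length of the CK2α list, the shortest. JUND had the only such region with a CK2α centre within 1 kb (1 of 9), against 23.8% of all such regions.

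Around the leading Pol II sites of the immediate-early genes the TBBz list mostly held more regions than the DMSO list. Within 5 kb of the 6 leading DMSO regions, at JUND, IER2, JUN, ATF3, JUNB and DUSP1, the DMSO list held 1 region each. The TBBz list held 4 at IER2 and JUNB, 2 at JUND, JUN and ATF3, and 1 at DUSP1. Thus 5 of 6 had more TBBz than DMSO regions (83.3%, 35.9 to 99.6%), against 30.7% of all 218 DMSO regions in the first 1%, a share just below the interval. Within 10 kb it was again 5 of 6, against 40.4%, which lies inside the interval. An excess of at least 2 was seen at 2 of the 6 and in 4.59% of the 218. An excess of 3 was seen at 2 of the 218 regions, and these were IER2 and JUNB. Of the 4 at JUNB, 1 is the region 600 bp outside its window, and of the 4 at IER2, 1 lay 2612 bp from the DMSO region. Neither of these lay within 2.5 kb, so the excess of 3 at both genes rests on the 5 kb distance. The 1% limit and the 5 kb distance were chosen after the values were seen. The required 4-fold signal over the surrounding 10 kb removed more candidates with DMSO than with TBBz. It can leave sites inside broad Pol II signal out of a list, and its part in these counts was not tested.

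**Figure D3:**
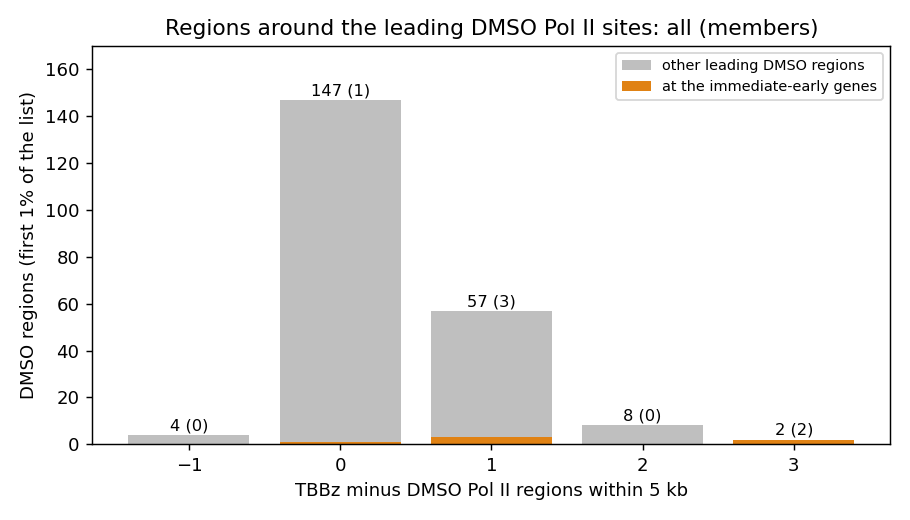
Bars count the 218 DMSO regions in the first 1% of the list by the number of TBBz minus DMSO Pol II regions within 5 kb of each; orange marks the 6 regions at the immediate-early genes, and the labels give all regions with those 6 in parentheses. Most regions lie at 0 (147 regions), while both regions with an excess of 3 are at the immediate-early genes. At a distance of 2.5 kb neither of these 2 has an excess of 3.

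CK2α centres lay 90 to 190 bp from a DMSO centre at the 3 genes where it was found, and at least 9.48 kb from the leading DMSO region at the others. All 3 CK2α regions overlapped a DMSO region (29.2 to 100%), against 36.8% of all CK2α regions, and 2 of 3 overlapped a TBBz region (9.43 to 99.2%), against 36.0%. The overlap at EGR1 and DUSP1 was narrow, and with at least 50% of the shorter region shared only JUND was left, 1 of 3 for each Pol II list. From the side of Pol II, 3 of 13 DMSO regions overlapped CK2α (23.1%, 5.04 to 53.8%), against 22.6% of all. For TBBz it was 2 of 20 (10.0%, 1.23 to 31.7%), against 19.4% of all. Each of these background shares lies within the interval of the members. Among the 6 leading DMSO regions, 2 had a CK2α centre within 5 kb (33.3%, 4.33 to 77.7%), JUND and DUSP1, against 70.6% of the 218 regions. The upper end of this interval lies above 70.6%. With the first 100 regions instead, it was 1 of 5 (0.505 to 71.6%) against 74%, and with the first 10% of the list 2 of 7 (3.67 to 71.0%) against 76.3%, where the background lies above the interval. Whether the background lies inside the interval thus depends on how many leading regions are taken. The median distance to the nearest CK2α centre was 17355 bp for the 6 and 388 bp for the 218. No control library was named for any list, so CK2α regions cannot be told apart from background that gathers at sites of dense Pol II.

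**Figure D4:**
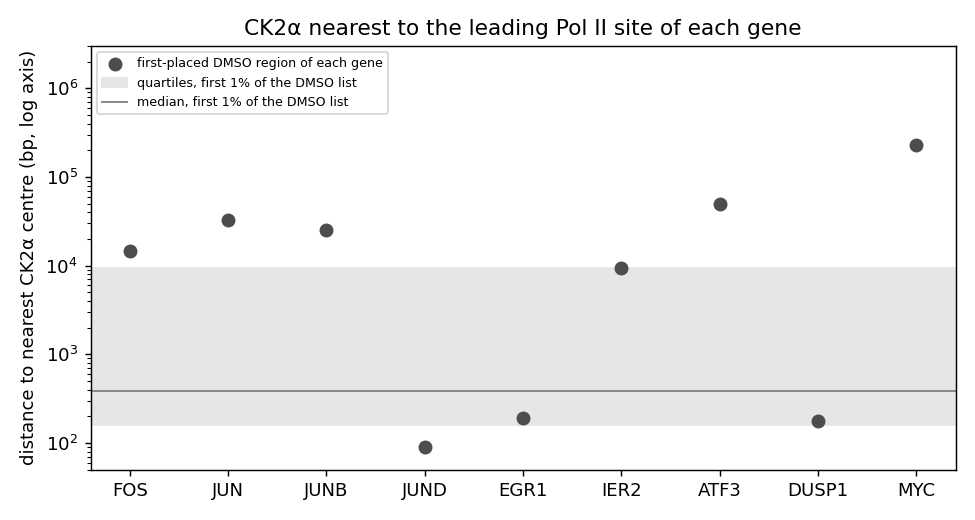
Points give the distance in bp, on a log axis, from the first-placed DMSO region of each gene to the nearest CK2α centre; the line and the grey band are the median (388 bp) and quartiles (159 and 9500 bp) of the 218 regions in the first 1% of the DMSO list. JUND, EGR1 and DUSP1 lie at 90 to 190 bp, IER2 at the upper edge of the band, and FOS, JUN, JUNB, ATF3 and MYC above it. The points of FOS, EGR1 and MYC are not from the first 1%, and the median over all DMSO regions is 2340 bp.

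By region numbers in the order CK2α, DMSO and TBBz, JUN and ATF3 were alike (0, 1 and 2), and no other pair of the 9 genes had the same 3 numbers. JUND differed from them by its CK2α region, MYC by 1 TBBz region fewer, and JUNB and IER2 by further TBBz regions. DUSP1 and FOS had 2 Pol II regions in each library and differed by the CK2α region at DUSP1. EGR1 stood apart with 1, 3 and 2. These numbers are small, and each comes from a single library.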

How the data were processed

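The members and lists were chosen with earlier results of these data known. Per the submitters' processing notes, Bowtie, HOMER and hg19 were used, with no versions stated. HOMER peaks were called by the authors in each library on its own, per the file headers, in factor style: peaks of 200 bp at least 500 bp apart, fragments of 150 bp, false discovery rate 0.001, and 4-fold over the surrounding 10 kb. This removed 25346 of 47165 candidates with DMSO, 13517 of 38299 with TBBz and 42856 of 56238 for CK2α, so sites inside broad Pol II signal can be missing from a list. The command names no control library. The deposited score column is 1 for every region and was not used.

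Starts were raised by 1 to count from 1. Regions were assigned to genes by centre; every region of the 9 genes is reported, as the rule for named genes asks. Other immediate-early genes were not analysed here, since no hg19 annotation was used. Overlaps, nearest centres and counts within a distance were computed over the whole lists with functions tested on simulated data. Promoter motifs were searched in the 250 bases before the start rather than in the whole promoter window. The alternatives changed the overlap rule, the lists and the windows. The software was SciPy 1.17.1, pandas 2.3.3 and NumPy 2.4.6 under Python 3.11.15, with figures by Matplotlib 3.10.9.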

Additional observations from a re-analysis of the deposited data

How the results depend on the processing

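Of 98 values recomputed under alternatives, 86 stayed within the counting interval of the share or within 1.5 times the count, place or distance. This count does not measure robustness. The intervals are so wide that a fall from 3 of 3 to 1 of 3 stayed within (29.2 to 100%), and windows narrowed by 2 kb changed no value. With at least 50% of the shorter region shared, CK2α regions on DMSO Pol II fell from 3 to 1 of 3 (33.3%), those on TBBz Pol II from 2 to 1 of 3 (33.3%), and DMSO regions on CK2α from 3 to 1 of 13 (7.69%). With centres within 500 bp as overlap, CK2α regions on TBBz Pol II came to 100%. With regions extended by 1 kb, DMSO regions kept with TBBz came to 100%, TBBz regions present with DMSO to 95% and CK2α regions on TBBz Pol II to 100%; wider rules can only add partners. With all lists shortened to the shortest, the median place of the TBBz regions was 16.6%. In the first 50% of each list the median places were 2.75% for CK2α, 1.09% for DMSO and 17.9% for TBBz, over fewer regions and shorter lists. Windows widened by 5 kb held 5 CK2α regions, the additional ones at ATF3 and IER2, with a median place of 18.3% for CK2α and 8.36% for DMSO. Alternatives around the leading DMSO regions were chosen after seeing the data: among the first 100 regions, 5 of 5 (100%) had more TBBz than DMSO regions, against 38% of all 100, and 1 of 5 (20%) had CK2α within 5 kb, against 74%. In the first 10% of the list these were 5 of 7 (71.4%) against 16.4%, and 2 of 7 (28.6%) against 76.3%. Within 10 kb they were 5 of 6 (83.3%) against 40.4%, and 3 of 6 (50%) against 75.7%. The rules of overlap do not bear on counts, places and distances. No paired analysis was possible because there is a single library per condition. Tags per region were not used here, so what depth limits at these genes was not tested.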
